A study of Mus musculus with 4 samples.

Results

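Collagens and the enzymes and chaperones that modify, fold, process and cross-link them were followed in bulk RNA sequencing of CT26 cells, a mouse colon carcinoma line. A gene belongs to this family if its symbol is that of a collagen chain, of a prolyl 4-hydroxylase alpha subunit (P4ha), a prolyl 3-hydroxylase (P3h), a lysyl hydroxylase (Plod) or a lysyl oxidase (Lox, Loxl), or if it is Serpinh1, Crtap, Pcolce, Bmp1 or Colgalt1. Of the 21677 gene symbols of the table, 50 were members, 33 of them collagen chains and 17 enzymes or chaperones. The mouse annotation holds 64 such protein-coding genes, and the other 14, among them Col5a1, Col2a1, Lox and Bmp1, are without a row and were not analysed here. The groups were iRhom KO, 2 libraries (S18 and S20), and Control, 2 libraries (S17 and S19). All 4 were grown alike in RPMI 1640 with fetal bovine serum and received no further treatment. The knockout targets Rhbdf1, which encodes iRhom1, and was made with a lentiviral CRISPR vector followed by single clone culture. The iRhom KO cells thus descend from 1 clone, so a clone difference cannot be told apart from an effect of the knockout. The sample labels give no genotype for Control. The study describes its RNA sequencing as iRhom1 KO against wild-type cells, and it also made a control line with Cas9 but no guide. If Control is wild type, effects of the vector and of Cas9 cannot be told apart from the knockout either. The study calls its RNA sequencing panels representative of independent experiments but does not say whether these libraries came from separate cultures, so each p-value measures the spread between these libraries, which may be technical. Values are FPKM, fragments scaled to transcript length and to the mapped fragments of the library, as the authors made them. The log2 change is iRhom KO over Control on the scale of log2(FPKM + 0.5), with its standard error (SE) and an adjusted p from limma. Since the RNA is bulk RNA, fewer cells of a type and less RNA per cell cannot be told apart.

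A collagen is a trimer of chains that wind into a triple helix in the endoplasmic reticulum. Prolyl 4-hydroxylases stabilize the helix, lysyl hydroxylases and a galactosyltransferase prepare lysines for cross-links, and the chaperone HSP47 holds the helix together until export. Outside the cell, proteinases trim the ends and lysyl oxidases start the cross-links. Fibroblasts make most of the collagen of a tumor, but carcinoma cells also transcribe some of these genes.

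The depth was estimated from the steps between low FPKM at 49900000 to 53600000 fragments per library. Rhbdf1 was listed at 0.0940 and 0.0584 FPKM in the iRhom KO libraries S18 and S20, against 0.538 and 0.890 FPKM in the Control libraries S17 and S19. In 3 of the 4 libraries this value is identical to that of the unrelated gene Apobec2, so it is no check of the knockout. The study itself reports choosing knockout clones by Western blot for loss of the protein. The epithelial keratin Krt18 was at 17.4 and 18.3 FPKM in iRhom KO libraries, against 8.58 and 9.39 FPKM in Control libraries. Krt8 was at 6.80 and 7.03 FPKM in iRhom KO libraries, against 0.0278 FPKM and a listed 0 in Control libraries. It passed the level for testing only through iRhom KO. Krt20 had no call, at 13.6 and 11.3 FPKM in iRhom KO libraries and 10.2 and 10.5 FPKM in Control libraries. Cdx2 was at 0.243 and 0.270 FPKM in iRhom KO libraries, against 0.0290 and 0.0168 FPKM in Control libraries. Vil1 was at 0.0163 FPKM or less everywhere, and Epcam and Cdh1 were not analysed here. The whole epithelial list (5 of 8 genes with a row) summed to 38.0 and 36.8 FPKM in iRhom KO libraries and 18.8 and 19.9 FPKM in Control libraries. Of the fibroblast marker list, 6 of 9 genes have a row and 3 of these are collagens. The others were Dcn, at 2.55 and 2.41 FPKM in iRhom KO libraries and 2.03 and 2.17 FPKM in Control libraries, Pdgfra, at 0.761 and 0.723 FPKM against 1.05 and 0.916 FPKM in the Control libraries, and Thy1, at 0.0265 FPKM or less everywhere. The summed FPKM of the whole fibroblast list was 111 and 125 in iRhom KO libraries, against 65.4 and 61.2 in Control libraries. Nearly all of this sum in every library comes from the 3 collagens, so it repeats values of the members. The leukocyte list (4 of 7 genes with a row) summed to 2.91 and 2.25 FPKM in iRhom KO libraries and 5.21 and 5.38 FPKM in Control libraries. Its Cd68 was at 0.677 and 0.830 FPKM in iRhom KO libraries, against 3.36 and 3.36 FPKM in Control libraries. Lyz2 was at 2.24 and 1.42 FPKM in iRhom KO libraries and 1.82 and 2.02 FPKM in Control libraries. Ptprc was under 0.01 FPKM everywhere. The endothelial list (2 of 5 genes with a row) summed to at most 0.0227 FPKM. The smooth muscle and pericyte list (5 of 6 genes with a row) summed to 4.85 and 5.14 FPKM in iRhom KO libraries, against 1.00061 and 1.05 FPKM in Control libraries. Its Acta2, an actin of smooth muscle and myofibroblasts that passed the level for testing only through iRhom KO, made up most of the iRhom KO sum. Acta2 was at 4.57 and 4.88 FPKM in iRhom KO libraries and 0.476 and 0.459 FPKM in Control libraries. Des of the same list went the other way, at 0.182 and 0.173 FPKM in iRhom KO libraries against 0.464 and 0.504 FPKM in Control libraries. Tagln, Myh11 and Cspg4 stayed under 0.1 FPKM in every library. The part of these markers in the collagen results was not tested.

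More of these genes were higher than lower in iRhom KO cells. Testing required a group mean of 1 FPKM or more in either group, which took in 24 members (11 chains and 13 enzymes or chaperones) and 10271 genes in all. At an adjusted p under 0.05 from limma, 14 of the 24 tested members were higher and 1 was lower, where 10.7% of all genes tested were higher and 21.9% lower. Of the higher members, 4 had a log2 change over 1 (1.08% of all genes tested). The median log2 change of the tested members was 0.55, and that of all genes tested was -0.10. Among the chains 9 of 11 were higher and none was lower, and among the enzymes and chaperones 5 of 13 were higher and 1, P3h4, was lower. Col6a2 passed the level for testing only through its iRhom KO libraries, and without it 13 of 23 members were higher. The libraries of the groups did not overlap for 22 tested members, 17 with iRhom KO above (25.9% of all genes tested) and 5 with iRhom KO below (46.1% of all genes tested). Scaling between libraries shifted the median of all genes from -0.10 to -0.01 (trimmed mean) or -0.00278 (quantile), and under either scaling 15 members were higher, the 14 above and Loxl3, beside 16.0% and 15.6% of all genes tested. Without S17, S18, S19 or S20, the members called higher numbered 14, 13, 12 and 12, beside 5.86%, 5.63%, 7.25% and 5.45% of all genes tested. In each of these fits the group that lost a library holds 1 library, which is assumed to vary like the pair of the other group.

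**Figure D1:**
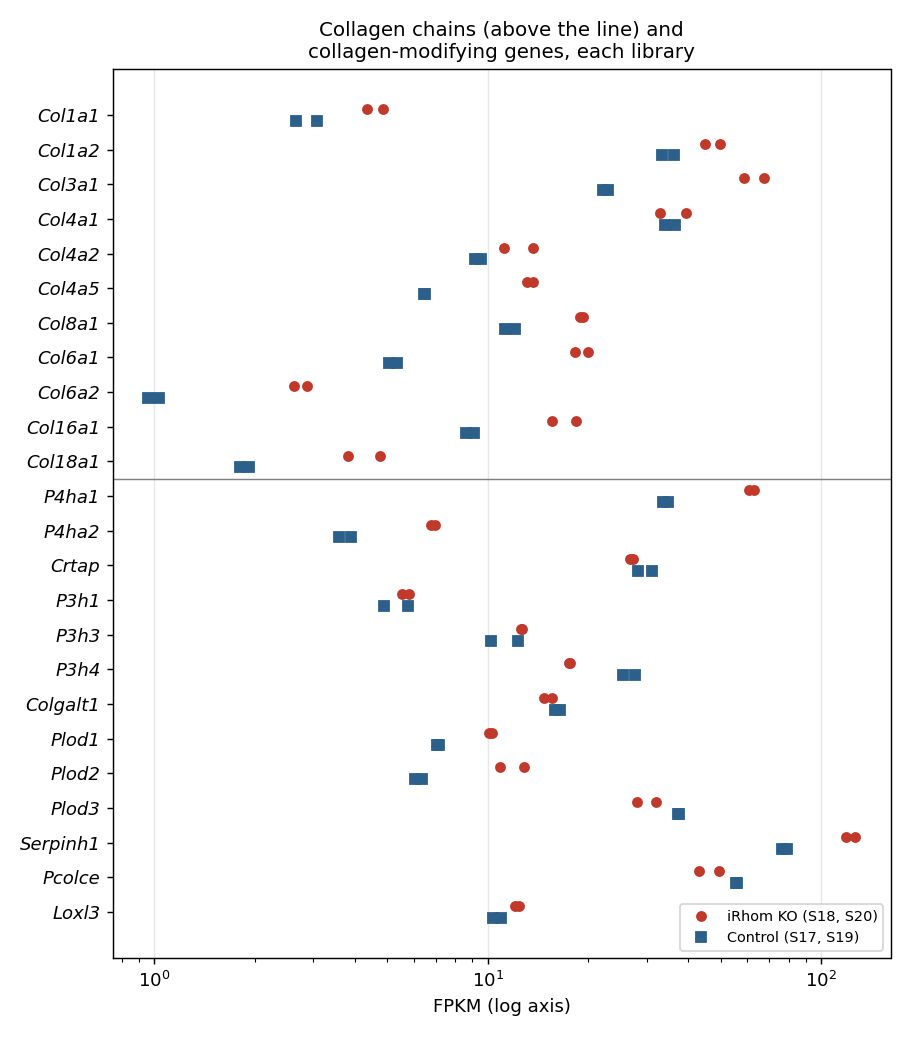
FPKM of the 24 tested members in each library, on a log axis. Circles are iRhom KO libraries, squares are Control libraries, and the line separates collagen chains from enzymes and chaperones. Col6a1 lies at 18.2 and 19.98 FPKM in iRhom KO libraries against 5.36 and 5.06 FPKM in Control libraries, while the libraries overlap for Col4a1 and P3h1.

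Of the fibril-forming collagens, which build the banded fibers of connective tissue, all 3 tested chains were higher. Col3a1, the chain of type III collagen of elastic and healing tissue (chromosome 1, 45311538 to 45349706, GRCm38), was at 58.8 and 67.5 FPKM in iRhom KO libraries, against 22.9 and 22.2 FPKM in Control libraries. The groups are far apart, with S20 the highest. This is a 2.80-fold difference of the means and a log2 change of 1.46 (SE 0.0884, adjusted p = 0.00422 from limma), and 56 of the 10271 genes tested had a log2 change at least as large. Col1a1 and Col1a2 encode the chains of type I collagen, the main fibrillar collagen of skin, bone and tumor stroma. Col1a2 was at 44.7 and 49.6 FPKM in iRhom KO libraries, against 36.3 and 33.2 FPKM in Control libraries, a log2 change of 0.43 (SE 0.0865, adjusted p = 0.0271). Col1a1 was at 4.34 and 4.86 FPKM in iRhom KO libraries, against 3.08 and 2.65 FPKM in Control libraries, a log2 change of 0.60 (SE 0.103, adjusted p = 0.0199). Neither gene shows overlap between the groups, but both calls were lost when S18, S19 or S20 was left out. Col1a1 had an adjusted p of 0.0533 without S18, 0.0521 without S19 and 0.0796 without S20. Col1a2 had an adjusted p of 0.0505 without S18, 0.0844 without S19 and 0.0843 without S20, and of 0.0507 with no filter on low values.

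Type VI collagen, whose alpha 1, 2 and 3 chains assemble into beaded filaments around cells, held the largest log2 change among the tested members. Col6a1 (chromosome 10, 76708792 to 76726168) was at 18.2 and 19.98 FPKM in iRhom KO libraries, against 5.36 and 5.06 FPKM in Control libraries. Every iRhom KO value is more than 3 times every Control value, and the log2 change was 1.78 (SE 0.0789, adjusted p = 0.00316). Col6a2 was at 2.63 and 2.87 FPKM in iRhom KO libraries, against 1.03 and 0.960 FPKM in Control libraries, a log2 change of 1.12 (SE 0.0865, adjusted p = 0.00547). The alpha 3 chain Col6a3 fell just below the level for testing, at 0.862 and 0.930 FPKM in iRhom KO libraries against 0.247 and 0.226 FPKM in Control libraries, a 3.79-fold difference of the means. Col6a3 thus lay just outside the filter, while Col6a2 passed it through an iRhom KO mean of 2.75 FPKM (0.996 FPKM in Control). In a fit with no filter, in which 4.13% of all genes were higher and 7.30% lower, Col6a3 had a log2 change of 0.92 (adjusted p = 0.0164). The chain balance was close between the groups for Col6a3, at 0.0473 and 0.0465 times the FPKM of Col6a1 in iRhom KO libraries and 0.0460 and 0.0447 times in Control libraries. For Col6a2 this ratio was 0.144 and 0.144 in iRhom KO libraries, against 0.192 and 0.190 in Control libraries. Col6a4, Col6a5 and Col6a6, the alternative long chains, stayed under 0.04 FPKM in every library.

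The genes of Col6a2, Col6a1 and Col18a1 lie near each other on chromosome 10, and all 3 were higher, while none of the other tested genes around Col6a1 was called higher. Of the 15 other tested genes with a start site within 1 Mb of that of Col6a1, 3 were lower and 12 had no call, and their median log2 change was 0.01. Pttg1ip, named after its values were seen, had the largest log2 change among them (1.55, SE 0.824, adjusted p = 0.212). Along the chromosome, the start site of Col6a2 lies at -103 kb and that of Col18a1 at 440 kb from that of Col6a1. Within 1 Mb of the start site of Col18a1 lie 11 tested genes outside the family, of which 1 was higher and 3 were lower.

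**Figure D2:**
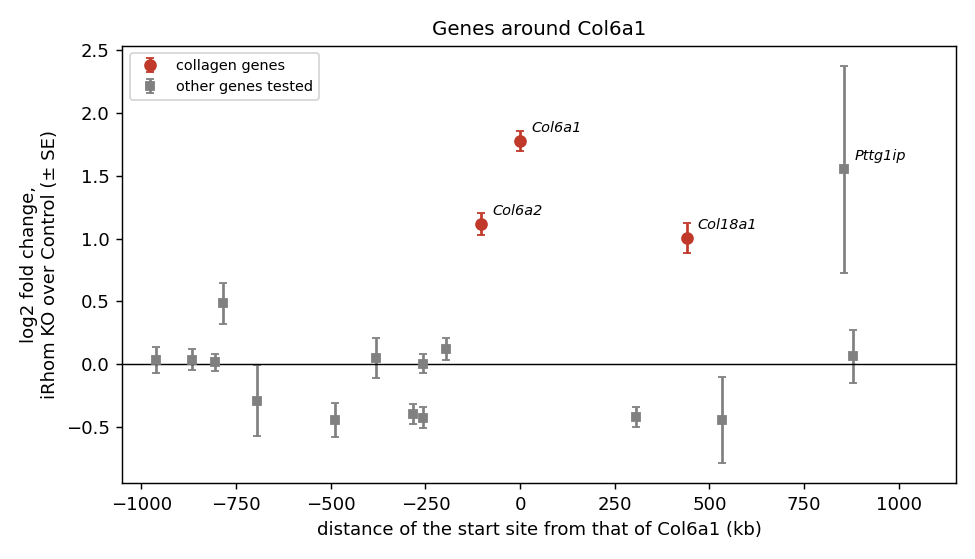
Log2 fold change of iRhom KO over Control for the tested genes with a start site within 1 Mb of that of Col6a1, against the distance of the start sites in kb. Bars are standard errors from limma. The 3 collagen genes lie at 1.78, 1.12 and 1.004, and the 15 other genes have a median of 0.01, with a wide error for Pttg1ip.

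Among the network-forming collagens, which make the sheets of basement membranes and related layers, 2 of 4 tested chains were higher. Col4a5, a type IV chain of specialized basement membranes (chromosome X), was at 13.1 and 13.6 FPKM in iRhom KO libraries, against 6.47 and 6.44 FPKM in Control libraries, a log2 change of 0.996 (SE 0.0636, adjusted p = 0.00449). Col8a1, a short-chain network collagen of vessel walls and eye membranes, was at 18.9 and 19.3 FPKM in iRhom KO libraries, against 12.1 and 11.3 FPKM in Control libraries, a log2 change of 0.69 (SE 0.0679, adjusted p = 0.00753). Both genes have their replicates close together and the groups well apart. Col4a1 and Col4a2, the chains of the common basement membrane collagen, are read in opposite directions from neighbouring starts and share 22 exonic bases. Col4a1 was at 32.9 and 39.4 FPKM in iRhom KO libraries and 36.5 and 34.0 FPKM in Control libraries, so the groups overlap (log2 change 0.03, SE 0.109, adjusted p = 0.845). Col4a2 was at 11.2 and 13.7 FPKM in iRhom KO libraries, against 9.54 and 9.14 FPKM in Control libraries, without overlap but without a call (log2 change 0.39, SE 0.113, adjusted p = 0.0626). Without S18 its value was 0.53 (adjusted p = 0.0405), but there the SE of 0.0619 comes from the spread of the Control pair and not of iRhom KO.

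Of the remaining chains above the level for testing, both were higher. Col16a1, a fibril-associated collagen that binds to the surface of fibrils and cells (chromosome 4), was at 15.6 and 18.4 FPKM in iRhom KO libraries, against 9.07 and 8.60 FPKM in Control libraries. Its log2 change was 0.90 (SE 0.101, adjusted p = 0.00919). Col18a1, the basement membrane collagen from which endostatin is cleaved, was at 3.80 and 4.74 FPKM in iRhom KO libraries, against 1.93 and 1.81 FPKM in Control libraries, with a log2 change of 1.004 (SE 0.121, adjusted p = 0.00993). For both genes S20 was the highest library, and the spread of the iRhom KO libraries was wider than that of the Control libraries.

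The make-up of collagen transcripts, given as a description with no test, had Col3a1 first in iRhom KO cells. Summed over the 33 chains, collagen FPKM was 226 and 256 in iRhom KO libraries, against 146 and 137 in Control libraries, a ratio of the means of 1.71. Col3a1 held 26.0% and 26.3% of this sum in iRhom KO libraries, against 15.7% and 16.2% in Control libraries. Col1a2 held 19.8% and 19.4% in iRhom KO libraries, against 25.0% and 24.3% in Control libraries. Col4a1 held 14.5% and 15.4% in iRhom KO libraries, against 25.0% and 24.9% in Control libraries, where it was the highest chain. For each of these chains the shares of the groups do not overlap. These shares and the ratios between chains are taken within a library, so a scaling factor per library does not move them. Although the type I trimer usually holds more alpha 1 than alpha 2 chains, the FPKM of Col1a1 was only 0.0970 and 0.0979 times that of Col1a2 in iRhom KO libraries, and 0.0846 and 0.0798 times in Control libraries.

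**Figure D3:**
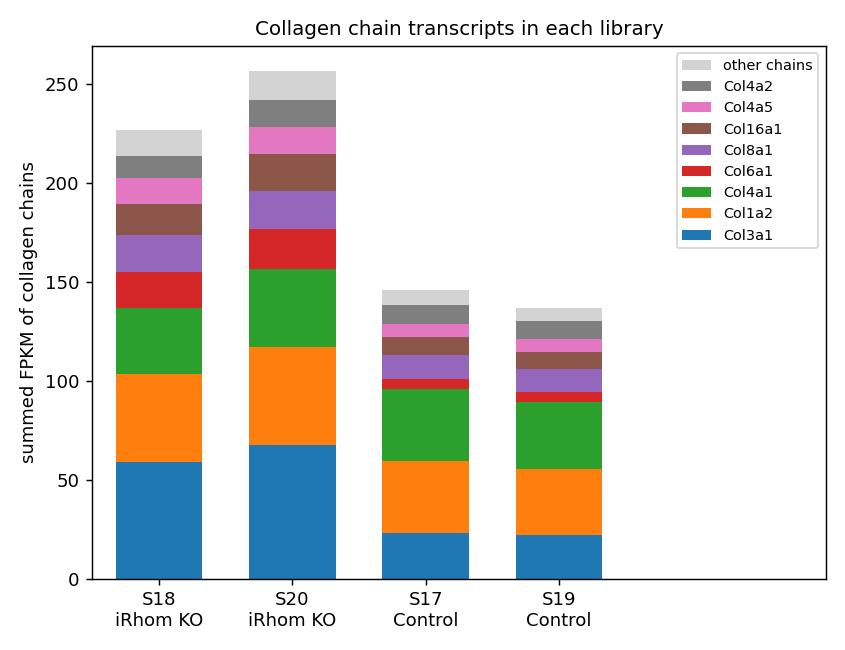
Summed FPKM of the collagen chains in each library, split by chain, with chains of lower level pooled as other chains. The iRhom KO libraries S18 and S20 reach 226 and 256 FPKM and the Control libraries S17 and S19 reach 146 and 137 FPKM, with Col3a1 at the base of each bar.

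Of the 50 members, 26 were below the level for testing, 22 chains and 4 enzymes, and 16 of these stayed under 0.1 FPKM in every library. For 11 of the 26 the iRhom KO libraries were both above the Control libraries (23.1% of all genes below that level) and for 4 both were below (19.1%), and in 11 the groups overlapped. Col5a3, a minor fibril-forming chain, was at 0.155 and 0.227 FPKM in iRhom KO libraries, against 0.0192 and 0.01701 FPKM in Control libraries, an estimated 47 and 70 fragments in iRhom KO against 6 and 5 fragments in Control. Its log2 change with no filter was 0.41 (adjusted p = 0.0358), a scale that understates the change of so low a gene. P3h2, a prolyl 3-hydroxylase of basement membrane collagen, was at 0.101 and 0.219 FPKM in iRhom KO libraries, against 0.0251 FPKM in S17 and a listed 0 in S19 of the Control libraries, without a call in that fit (adjusted p = 0.106). The chains with lower values in iRhom KO libraries included Col11a2, at 0.0277 and 0.0634 FPKM against 0.129 and 0.204 FPKM in Control libraries, and Col17a1, a transmembrane collagen of epithelial anchoring, at 0.0425 and 0.0404 FPKM against 0.0977 and 0.0793 FPKM in Control libraries. Neither passed in that fit (adjusted p = 0.0961 and 0.135). Col7a1, which forms the anchoring fibrils of skin, was at 0.365 and 0.386 FPKM in iRhom KO libraries and 0.339 and 0.309 FPKM in Control libraries.

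**Figure D4:**
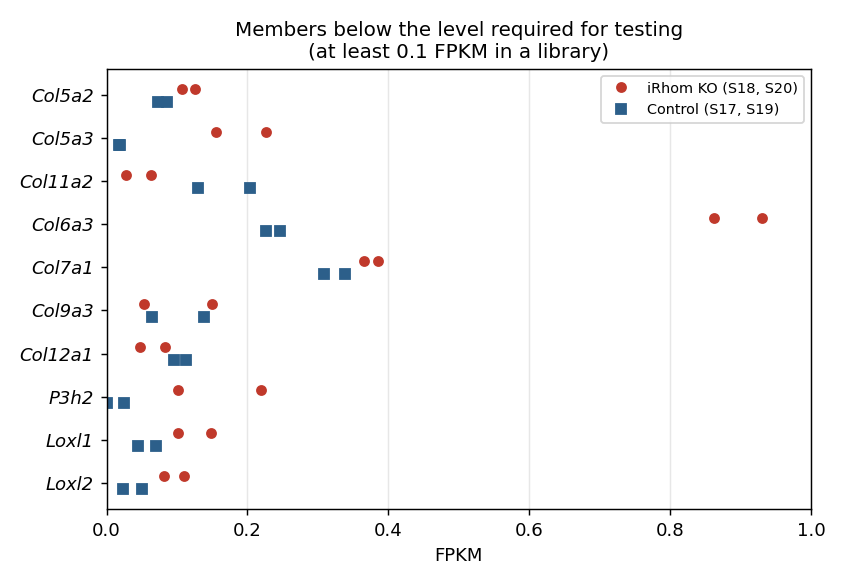
FPKM of the 10 members below the level for testing that reached 0.1 FPKM in a library, on a linear axis. Circles are iRhom KO libraries and squares are Control libraries. Col6a3 is the highest, at 0.862 and 0.930 FPKM in iRhom KO libraries against 0.247 and 0.226 FPKM in Control libraries.

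Both tested prolyl 4-hydroxylase alpha subunits, the catalytic subunits that hydroxylate prolines of the helix, were higher. P4ha1, the main alpha subunit of most cells (chromosome 10, 59323296 to 59373304), was at 62.8 and 61.0 FPKM in iRhom KO libraries, against 33.6 and 34.7 FPKM in Control libraries. The replicates lie close together, and the log2 change was 0.85 (SE 0.0596, adjusted p = 0.00503). P4ha2, the subunit known from cartilage and endothelium (chromosome 11, 54100095 to 54131665), was at 6.95 and 6.75 FPKM in iRhom KO libraries, against 3.58 and 3.89 FPKM in Control libraries, a log2 change of 0.79 (SE 0.0748, adjusted p = 0.00698). The FPKM of P4ha2 was 0.111 and 0.111 times that of P4ha1 in iRhom KO libraries and 0.107 and 0.112 times in Control libraries. P4hb, the beta subunit that is also protein disulfide isomerase, had a log2 change of 0.27 (adjusted p = 0.0291), so that P4ha1 was at 0.174 and 0.170 times its FPKM in iRhom KO libraries, against 0.113 and 0.117 times in Control libraries. P4ha3 was under 0.03 FPKM everywhere.

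P4ha1 and P4ha2 are known targets of hypoxia-inducible factors, which bind a core written ACGTG, or CACGT on the other strand. The bases before the start sites of these genes are shown with this core in capitals, beside those of Col3a1, the fibril-forming member with the largest log2 change, which hold none. The window of Col6a1 holds none either. The sequences come from RefSeq (GRCm38.p6), are written 5′ to 3′ on the strand of the gene, and cover the 250 bases before the RefSeq start: P4ha1 chr10:59323046-59323295 (plus strand), P4ha2 chr11:54100674-54100923 (plus strand) and Col3a1 chr1:45311288-45311537 (plus strand).
P4ha1: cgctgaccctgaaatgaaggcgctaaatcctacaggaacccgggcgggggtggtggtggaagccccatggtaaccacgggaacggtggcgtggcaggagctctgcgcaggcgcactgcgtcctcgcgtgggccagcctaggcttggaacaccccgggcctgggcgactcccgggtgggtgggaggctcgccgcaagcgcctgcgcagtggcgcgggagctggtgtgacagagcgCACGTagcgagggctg
P4ha2: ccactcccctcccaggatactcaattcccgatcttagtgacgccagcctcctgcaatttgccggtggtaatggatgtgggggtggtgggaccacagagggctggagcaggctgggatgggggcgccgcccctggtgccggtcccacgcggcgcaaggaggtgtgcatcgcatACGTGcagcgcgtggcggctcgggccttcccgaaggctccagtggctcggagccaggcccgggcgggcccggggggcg
Col3a1: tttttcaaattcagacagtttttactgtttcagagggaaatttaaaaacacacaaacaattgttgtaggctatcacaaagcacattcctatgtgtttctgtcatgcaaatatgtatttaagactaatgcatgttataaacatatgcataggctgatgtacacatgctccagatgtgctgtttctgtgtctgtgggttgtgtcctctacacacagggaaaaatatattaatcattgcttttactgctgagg
The core of P4ha1 begins 16 bases and that of P4ha2 78 bases before the RefSeq start. For P4ha2 this start differs from that of the gene span given above, which comes from GENCODE and begins at 54100095. The P4ha2 window and its core thus lie inside that span. RefSeq promoters were at hand for 20 of the 24 tested members. The core, sought on both strands, was in 6 of these 20 (30%), namely Col1a2, P3h1, P4ha1, P4ha2, Plod3 and Serpinh1, and in 18.5% of the 27025 genes with a promoter. Of the 12 higher members with a promoter, 4 held it. The heat shock element, found in 139 of the 27025 genes, and the ER stress response element, found in 35, both sought on either strand, were in none of the 20. A match is only a match of letters, and an absent one says only that these letters are not in this window.

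Of the 3 lysyl hydroxylases, Plod2 and Plod1 were higher and Plod3 had no call. Plod2, which hydroxylates lysines of the collagen ends for stable cross-links, was at 12.9 and 10.9 FPKM in iRhom KO libraries, against 6.04 and 6.34 FPKM in Control libraries, a log2 change of 0.88 (SE 0.101, adjusted p = 0.00952). Plod1, which acts on lysines of the helix, was at 10.1 and 10.3 FPKM in iRhom KO libraries, against 7.14 and 7.06 FPKM in Control libraries, a log2 change of 0.49 (SE 0.0622, adjusted p = 0.0107). Both were higher in each iRhom KO library than in either Control library. Plod3, which also attaches sugars to hydroxylysine, was at 27.99 and 32.0 FPKM in iRhom KO libraries, against 37.3 and 37.5 FPKM in Control libraries, and missed the threshold (log2 change -0.32, SE 0.0857, adjusted p = 0.0534). It passed as lower among genes of at least 5 FPKM (adjusted p = 0.0466). Without S20 it was at -0.41 (adjusted p = 0.0455), with an SE of 0.0496 from the spread of the Control pair and not of iRhom KO. Plod3 lies on chromosome 5, where the median log2 change of the 665 tested genes was -0.22, and with chromosome medians subtracted its log2 change was -0.10 (adjusted p = 0.482). Colgalt1, the galactosyltransferase of hydroxylysine, was at 15.6 and 14.8 FPKM in iRhom KO libraries and 15.9 and 16.5 FPKM in Control libraries (log2 change -0.09, adjusted p = 0.338), and the sign turned to 0.01 with trimmed mean scaling, 0.03 with quantile normalization and 0.02 with chromosome medians subtracted. Of the exonic bases, 11.4% of Colgalt1, 11.7% of Plod3 and 6.42% of Plod2 overlap a gene on the other strand, and the sources used here do not say whether strand was used.

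Serpinh1, the gene of the collagen chaperone HSP47 (chromosome 7), was the most abundant member. It was at 119 and 127 FPKM in iRhom KO libraries, against 76.6 and 78.9 FPKM in Control libraries, with no overlap. Its log2 change was 0.65 (SE 0.0652, adjusted p = 0.00775).

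The prolyl 3-hydroxylase family held the only lower member. P3h4, also called SC65, a non-enzymatic partner of P3h3 in lysine hydroxylation (chromosome 11), was at 17.5 and 17.7 FPKM in iRhom KO libraries, against 25.5 and 27.6 FPKM in Control libraries. The groups do not overlap, and the log2 change was -0.58 (SE 0.0690, adjusted p = 0.00987). P3h3 was at 12.5 and 12.7 FPKM in iRhom KO libraries and 12.3 and 10.2 FPKM in Control libraries, with a log2 change of 0.16 (adjusted p = 0.300). P3h1, the enzyme that modifies a single proline of type I collagen together with Crtap, was at 5.52 and 5.81 FPKM in iRhom KO libraries and 4.90 and 5.78 FPKM in Control libraries, overlapping between groups (0.08, adjusted p = 0.554). Crtap was at 27.3 and 26.8 FPKM in iRhom KO libraries and 28.2 and 31.2 FPKM in Control libraries (-0.13, adjusted p = 0.247). None of P3h3, P3h1 and Crtap was called.

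Outside the cell, Pcolce speeds the removal of the procollagen end by Bmp1, and lysyl oxidases form the aldehydes of cross-links. Pcolce was at 43.2 and 49.4 FPKM in iRhom KO libraries, against 56.0 and 55.6 FPKM in Control libraries, without a call (log2 change -0.27, SE 0.0856, adjusted p = 0.0757). Without S20 Pcolce was at -0.37 (adjusted p = 0.0480), with an SE of 0.0489 from the spread of the Control pair and not of iRhom KO. Like Plod3, it lies on chromosome 5. With chromosome medians subtracted it was at -0.05 (adjusted p = 0.709). Loxl3 was at 12.4 and 12.1 FPKM in iRhom KO libraries, against 10.3 and 10.98 FPKM in Control libraries, without a call (0.20, SE 0.0671, adjusted p = 0.0896), but it was called higher under trimmed mean scaling (0.29, adjusted p = 0.0331), quantile normalization (0.31, adjusted p = 0.0291) and chromosome medians subtracted (0.25, adjusted p = 0.0463). It was the only lysyl oxidase above the level for testing, and 11.6% of its exonic bases overlap a gene on the other strand. Loxl1 and Loxl2 were between 0.0811 and 0.148 FPKM in iRhom KO libraries and between 0.0240 and 0.0703 FPKM in Control libraries.

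Chromosomes 13, 15 and 17 had the lowest median log2 changes of the autosomes (-0.37, -0.33 and -0.38), followed by chromosome 5, and no tested member lies on 13, 15 or 17. With chromosome medians subtracted, the 14 higher members were all still called, and P3h4 was still lower (-0.50, adjusted p = 0.0127). The other tested genes within 1 Mb of a higher member had medians from -0.68 (2 genes around Plod2) to 0.18 (9 genes around Col8a1).

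**Figure D5:**
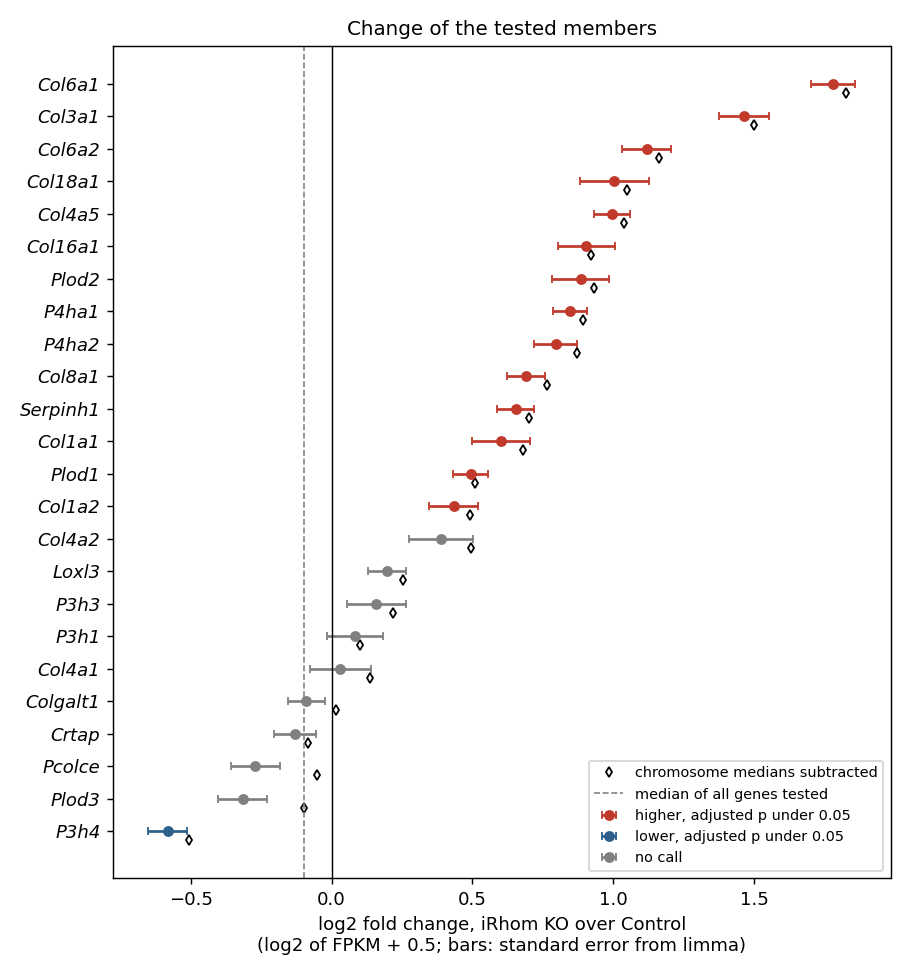
Log2 fold change of iRhom KO over Control for the 24 tested members, in falling order. Filled points and bars are the values and standard errors from limma, coloured by call, and open diamonds are the values with chromosome medians subtracted. The members run from 1.78 for Col6a1 to -0.58 for P3h4, and the dashed line marks the median of all genes tested, -0.10.

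Genes that fold, export and trim procollagen but lie outside the family were split. Of 19 tested genes of that list, 5 were higher and 2 lower, where 10.7% of all genes tested were higher and 21.9% lower, with a median log2 change of 0.06. Sec23a and Sec24d, parts of the COPII coat that carries procollagen out of the endoplasmic reticulum, had log2 changes of 0.67 and 0.40 (adjusted p = 0.00698 and 0.0151), and Mia3, the TANGO1 export receptor, of 0.33 (adjusted p = 0.0206). Adamts14, a proteinase that removes the amino end of procollagen and passed the level for testing only through iRhom KO, averaged 1.58 ± 0.188 FPKM in iRhom KO and 0.450 ± 0.0394 FPKM in Control (SD, n = 2 libraries each, log2 change 1.13, adjusted p = 0.00698). The lectin chaperone Calr (-0.49, adjusted p = 0.00965) and its disulfide isomerase partner Pdia3 (-0.58, adjusted p = 0.0265) were lower. Of the 16 tested genes of the TGF-beta list, the best known inducers of collagen genes and their signaling parts and targets, 4 were higher, 2 were lower and the median was -0.02, beside the same 10.7% and 21.9% of all genes tested. Ccn2, a matrix protein induced by TGF-beta, averaged 20.9 ± 0.828 FPKM in iRhom KO and 13.3 ± 0.142 FPKM in Control (SD, n = 2 libraries each, log2 change 0.63, adjusted p = 0.00798). The signal transducer Smad3 (0.46, adjusted p = 0.0157), the latency protein Ltbp3 (0.35, adjusted p = 0.0432) and the ligand Tgfb3 (0.25, adjusted p = 0.0499) were the other higher genes, while the inhibitor Smad7 (-1.004, adjusted p = 0.00965) and the co-receptor Tgfbr3 (-0.27, adjusted p = 0.0447, on chromosome 5) were lower.

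Since P4ha1, P4ha2 and Plod2 are also known as hypoxia-responsive genes, 24 such genes outside the family were listed. Of 18 tested, 9 were higher and 1 lower, with a median log2 change of 0.42, where 10.7% of all genes tested were higher, 21.9% lower and the median was -0.10. The mitophagy receptor Bnip3 averaged 78.8 ± 9.88 FPKM in iRhom KO and 12.1 ± 1.36 FPKM in Control (SD, n = 2 libraries each, log2 change 2.66, adjusted p = 0.00316). Ankrd37 (2.22, adjusted p = 0.00316), the vasodilator Adm (1.85, adjusted p = 0.00353) and the glucose transporter Slc2a1 (0.76, adjusted p = 0.00563) were also higher. Both Ankrd37 and Adm passed the level for testing only through iRhom KO. The count of 9 higher genes and the median of 0.42 thus include genes that were tested only because they were high in iRhom KO. The histone demethylase Kdm3a was lower (-0.40, adjusted p = 0.0243). Ldha and Vegfa, at 0.07 and 0.39, did not pass (adjusted p = 0.546 and 0.0524). Whether these genes and the hydroxylases share a cause was not tested.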

How the data were processed

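Bulk RNA of CT26 cells was sequenced in 2 iRhom KO and 2 Control libraries. The authors aligned the reads to GRCm38 with HISAT2 and deposited FPKM per gene from StringTie, with no further scaling between libraries stated. Versions and annotation are not given in the sources used here. The table also holds the authors' fold ratio of the group means and its log2, as deposited, neither of which was used. Of 21724 rows, 19 whose name is a number were left out and rows that share a symbol (26 symbols) were summed. The group of each column is in its name, the replicate number is not.

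FPKM plus a pseudocount of 0.5 were compared on the log2 scale with limma 3.58.1 in R 4.3.3 (variance trend, two-sided, Benjamini-Hochberg over all genes tested, threshold 0.05) for genes whose mean reached 1 FPKM in either group. Fold changes on this scale understate changes of low genes. The code was tested on simulated data. An exact permutation test of 2 against 2 libraries cannot give a two-sided p below 0.333. Positions come from GENCODE M21, and fragments were estimated with the longest annotated transcript. Values in every library are given for called members and others of at least 10 FPKM. From the other lists up to 4 genes per direction with the smallest p are named. P4hb, Ldha, Vegfa, Pttg1ip and Apobec2, and members named below these levels, were chosen after their values were seen. Members and lists were chosen with earlier results of these data known. The alternatives were other pseudocounts (0.1 and 1), filters, scalings, robust limma, the highest row of a shared symbol, chromosome medians subtracted and each library left out.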

Additional observations from a re-analysis of the deposited data

How the results depend on the processing

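No paired analysis was possible because the columns carry library tags and no replicate numbers. Of the 14 higher members, 14 kept their call with either other pseudocount, an overall mean of at least 1 FPKM, either scaling, robust limma, the highest row of a shared symbol, chromosome medians subtracted or S17 left out. Col1a2 lost it with no filter, and Col1a1 and Col1a2 without S18, S19 or S20, so that 12 to 14 members were higher with a library left out (and 11 of the 11 higher members that reach 5 FPKM). With a library left out, the lone library of its group is assumed to vary like the other group. The count of lower members ran from 1 to 3 with a library left out and was 2 among genes of at least 5 FPKM. The median log2 fold change of the members tested was 0.081 with no filter, which takes in members near 0 FPKM, 0.43 at a mean of 5 FPKM, 0.64 with trimmed mean scaling and 0.65 with quantile normalization. With a library left out, Col4a1 ran from -0.097 (without S20; -0.018 without S19) to 0.159 and P3h1 from -0.026 (without S17) to 0.193. Colgalt1 turned to 0.0069, 0.029 and 0.016 with trimmed mean scaling, quantile normalization and chromosome medians subtracted. Over all genes, 3350 were called, 1096 higher and 2254 lower. With a library left out the number fell to between 1657 and 2290, 561 to 745 higher and 1096 to 1713 lower. At 5 FPKM 727 were higher, with trimmed mean scaling 1646 were higher and 1696 lower, with quantile normalization 1605 and 1553, and with chromosome medians subtracted 1517 and 1387. With no filter 895 were higher and 1582 lower.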

Other observations

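Of the 5 tested genes through which cells bind or take up collagen, 2 were higher and 2 were lower at an adjusted p under 0.05 from limma, where 10.7% of all genes tested were higher and 21.9% lower. Ddr2, a receptor tyrosine kinase for fibrillar collagen, averaged 24.2 ± 0.229 FPKM in iRhom KO and 18.8 ± 0.384 FPKM in Control (SD, n = 2 libraries each, log2 change 0.36, adjusted p = 0.0186), and the collagen uptake receptor Mrc2 was higher too (log2 change 0.40, adjusted p = 0.0255). The related kinase Ddr1 was lower (-0.51, adjusted p = 0.0227) and lies on chromosome 17, where the median was -0.38. Itgb1, the beta 1 subunit of the collagen-binding integrins, was also lower (-0.36, adjusted p = 0.0387).

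Of 8 tested genes of proteoglycans and other proteins that bind collagen fibrils, 2 were higher and 2 lower, beside the same shares of all genes. Ogn, a small leucine-rich proteoglycan known as osteoglycin or mimecan, averaged 75.2 ± 5.55 FPKM in iRhom KO and 42.6 ± 1.34 FPKM in Control (SD, n = 2 libraries each, log2 change 0.81, adjusted p = 0.00715). It was higher although the median of its chromosome, 13, was -0.37. Thbs2 was also higher (0.35, adjusted p = 0.0363), and Emilin1 (-0.57, adjusted p = 0.0133) and Tnxb (-0.46, adjusted p = 0.0219, above 1 FPKM only in Control) were lower. Emilin1 lies on chromosome 5 and Thbs2 and Tnxb on chromosome 17.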
